A study of Xenopus laevis with 24 samples.

Results

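The 20 gene models described here encode transcription factors of the AP-1 and Egr classes and the related nuclear protein Ier2. They were measured in cultured embryonic tissue of the frog *Xenopus laevis*. The models were chosen by name from 31694 gene models as fos, fosb, fosl1, fosl2, jun, junb, jund, egr1, atf3 and ier2, each with an L and an S copy (homeologs, the pair of gene copies that this allotetraploid frog carries). All 20 passed the filter on low counts.

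AP-1 is a dimer of a Fos protein with a Jun protein, or of Jun proteins, that binds DNA through a basic leucine zipper, and Atf3 can join such dimers. Egr1 is a zinc finger factor that recruits the Nab corepressors. Many of these genes are immediate early genes: serum, growth factors, stress or wounding induce their transcripts within minutes through existing factors such as SRF with its Ets partners, without new protein synthesis, and the transcripts are short-lived. In frog embryos, Fgf and Erk signalling and wounding are known inducers of fos and egr1.

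RNA was sequenced from embryonic tissue for which the labels name no genotype, strain or drug, in any group. The embryo temperature was 16 °C in all groups. Dorsal marginal zone (DMZ) explants, the dorsal equatorial tissue that holds the Spemann organizer, were cut at stage 10.5 and collected, 5 or 6 a time, as sibling embryos passed through 10 stages of gastrulation and neurulation, the first stage 11 and the last stage 18. A ventral group (VMZ) consisted of 5 ventral marginal zones, also taken at stage 10.5, and a cap group of 20 animal caps, the prospective ectoderm, taken at stage 8, and both were lysed at stage 11. Each of the 12 groups had 2 libraries of pooled explants, 24 in all, and nothing in the labels says that they came from separate clutches, so the p-values measure the spread between these libraries, which may be technical. No uncut tissue is among the groups, so the time since cutting cannot be told apart from the stage in the DMZ series, and it differs between the caps and both marginal zones at stage 11.

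The libraries held 7.38 M counts in DMZ stage 11 replicate 2, 14.6 M in DMZ stage 17 replicate 1 and 21.9 to 39.8 M in each of the others. Organizer genes marked the DMZ: chrd.L, which encodes the organizer protein Chordin, had 288.7 and 483.5 CPM (counts scaled to library size) in DMZ libraries, against 1.66 and 0.563 CPM in VMZ libraries and 1.16 and 1.55 CPM in caps. Of 13 organizer gene models, 10 were higher in DMZ than in VMZ (76.9%) and 0 lower, beside 2.24% and 0.906% of all gene models. However, gsc.L, the L copy of goosecoid, differed between the DMZ libraries, at 2.27 and 32.13 CPM. The ventral list did not have its highest sum in the VMZ. Its 15 gene models summed to 739 and 1227 CPM in VMZ, against 1414 and 1472 in caps and 348 and 496 in DMZ. The ventral gene szl had 99.4 and 63.8 CPM in VMZ, against 203.2 and 217 CPM in caps. By contrast, wnt8a.L had 113.1 and 34.89 CPM in VMZ, against 0.916 and 1.41 in DMZ and 0.943 and 0.676 in caps. Both wnt8a copies were higher in VMZ than in each other region, 2 of 15 models (13.3%), and 0 were lower. Over all gene models 0.906% were higher in VMZ than in DMZ, and 0.721% than in caps. The 17 epidermal gene models summed to 649 and 1332 CPM in the DMZ libraries at stage 11, against 2100 to 2381 CPM in VMZ and 4031 to 5331 CPM in caps. In whole explants, fewer cells of a type and less RNA per cell cannot be told apart.

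**Figure D1:**
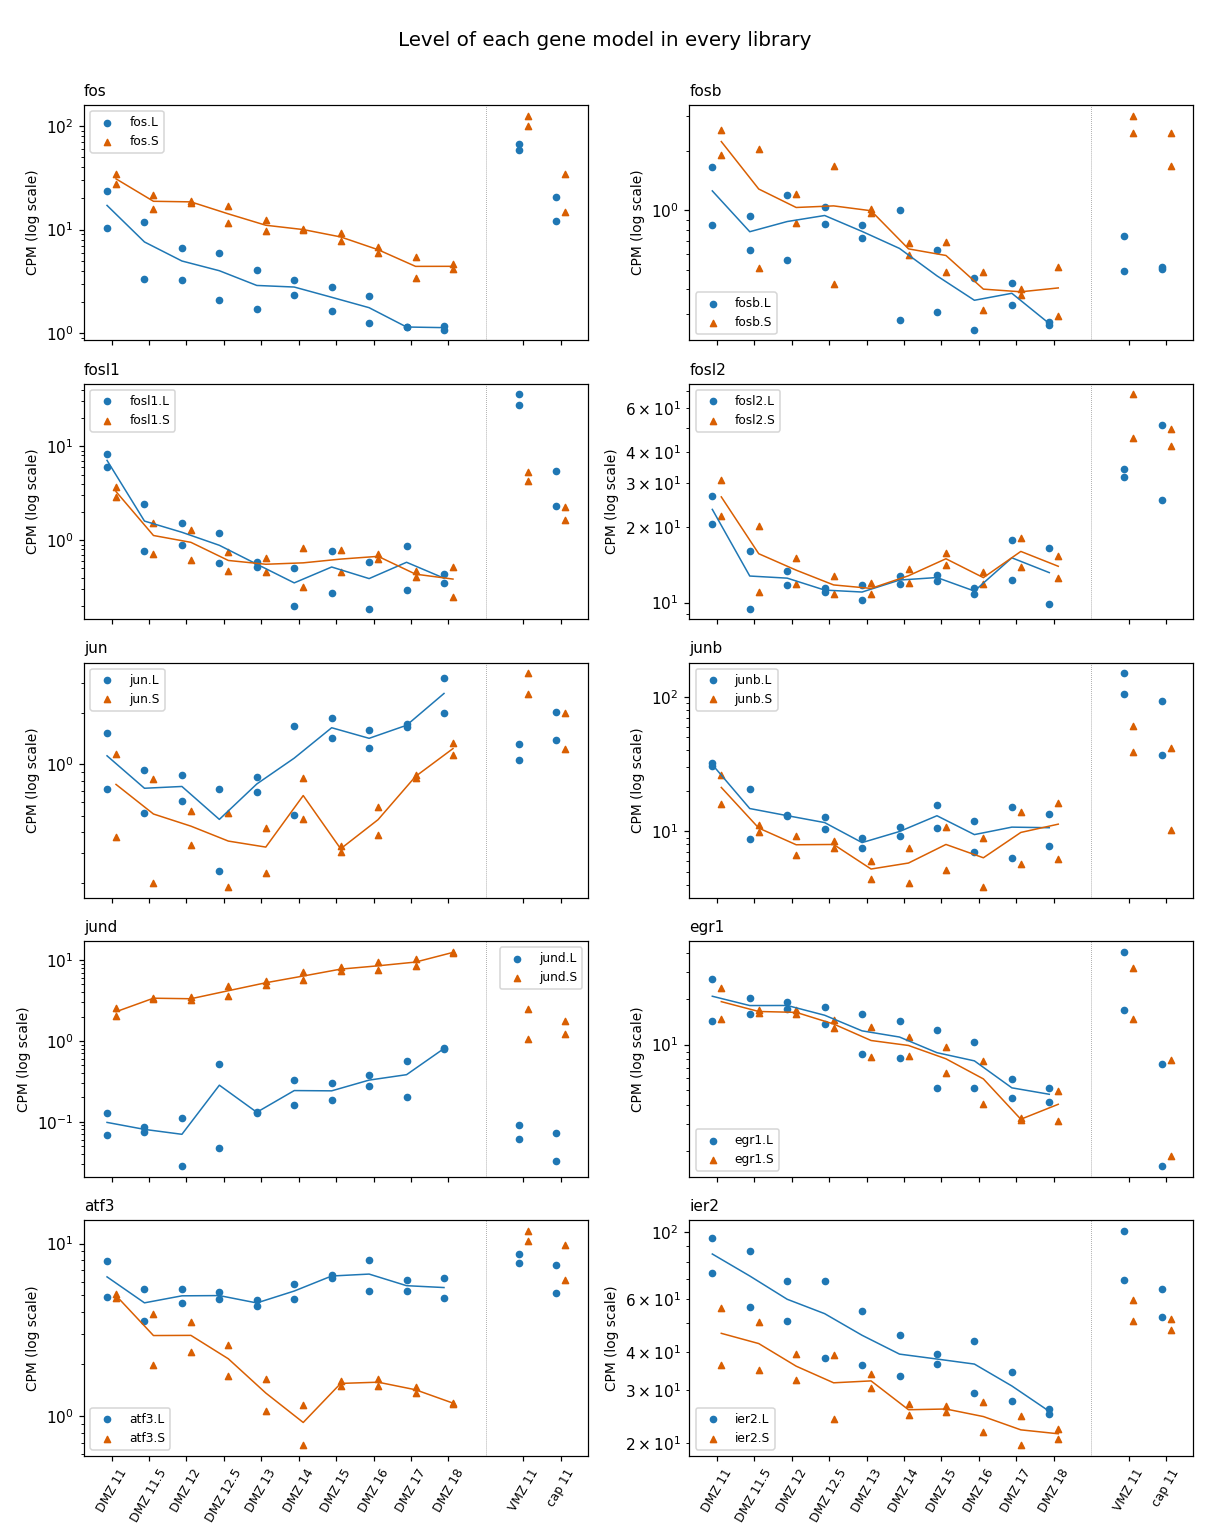
Level of each gene model in every library, in CPM on a log axis, with 1 panel per gene, circles for the L copy and triangles for the S copy, and lines through the DMZ stage means. Both fos copies, both fosl1 copies and junb.L lie highest in the VMZ, and the fos lines fall along the DMZ stages while the jund lines rise.

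fos transcripts were highest in the VMZ. fos.S, which encodes the Fos partner of the AP-1 dimer, had 34.28 and 27.52 CPM in DMZ libraries at stage 11, against 126.2 and 101.1 CPM in VMZ libraries. Caps had 34.27 and 14.65 CPM. Both VMZ libraries lay above every other library of the series, while DMZ and cap overlapped. In the order of the 12 group means, VMZ (113.6 CPM) stood first and apart from the next group, DMZ stage 11 (30.9 CPM), which overlapped with caps (24.5 CPM). Caps overlapped in turn with DMZ stage 11.5. The lowest means, 4.42 CPM at DMZ stage 18 and 4.41 CPM at stage 17, overlapped with each other.

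In 15 of the 20 gene models (75.0%) the VMZ had the highest mean of all 12 groups, beside 22.6% of all gene models tested. Some of these were near ties, such as ier2.L with means of 85.3 CPM in VMZ and 84.8 CPM in DMZ at stage 11. In 7 of the 20, both VMZ libraries lay above every other library (fos.L, fos.S, fosl1.L, fosl1.S, jun.S, junb.L and atf3.S), beside 5.62% of all gene models. Another group had the highest mean for fosb.L (highest at DMZ stage 11), fosl2.L (highest in caps), and jun.L, jund.L and jund.S (highest at DMZ stage 18).

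Between the dorsal and the ventral marginal zone, which were cut at the same stage, 3 of 20 members were lower in DMZ and 0 were higher at an adjusted p under 0.05 (edgeR's quasi-likelihood test, Benjamini-Hochberg adjustment over all 31349 gene models tested). Over all gene models, 0.906% were lower and 2.24% higher. The median log2 fold change of the members was -0.48, beside -0.04 over all gene models, and 17 of 20 had a negative sign.

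fos.S was lower in DMZ by a log2 fold change of -1.88 ± 0.33 (SE; adjusted p = 0.0061, edgeR). Its call held without each of the 4 libraries in turn. fos.L had 10.41 and 23.81 CPM in DMZ, against 58.1 and 67.49 CPM in VMZ, so the groups did not overlap. Its log2 fold change was -1.89 ± 0.63 with an adjusted p of 0.117 in edgeR, and of 0.0111 with the replicate number as a block. The point estimates of the L and S copies were close, and the error of fos.L was larger.

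Among the Fos-like genes, fosl1.L, the L copy of the gene for Fra-1, had 5.97 and 8.19 CPM in DMZ, against 35.68 and 27.37 CPM in VMZ. Its log2 fold change of -2.17 ± 0.65 had an adjusted p of 0.0811 in edgeR and 0.021 with the replicate block. fosl2.S, the S copy of the gene for Fra-2, had 22.11 and 30.85 CPM in DMZ, against 45.43 and 68.05 CPM in VMZ. It was called, at -1.11 ± 0.28 (adjusted p = 0.0437, edgeR), but in only 1 of the 4 fits without a library, and not under upper quartile scaling (adjusted p = 0.0526). fosl1.S and fosl2.L had smaller differences, of -0.55 and -0.48, neither called. The fosb copies lay between 0.492 and 3.02 CPM in both regions and were not called.

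Among the Jun genes, junb.L had 32.25 and 30.59 CPM in DMZ, against 150.1 and 106 CPM in VMZ. Its difference of -2.03 ± 0.49 was called (adjusted p = 0.0365, edgeR), and in none of the fits without a library, where adjusted p lay between 0.0961 and 0.192. junb.S had 26.35 and 16.13 CPM in DMZ, against 60.47 and 38.83 CPM in VMZ, and was not called (-1.22 ± 0.64, adjusted p = 0.338, edgeR). jun.S, a low-level model, had 0.373 and 1.15 CPM in DMZ, against 2.61 and 3.44 CPM in VMZ (-2.16 ± 0.65; adjusted p = 0.0853 in edgeR and 0.0232 with the block). jun.L had 0.712 and 1.54 CPM in DMZ, against 1.32 and 1.06 CPM in VMZ, so its libraries overlapped.

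atf3.S, the S copy of a stress-induced bZIP gene, had 5.12 and 4.86 CPM in DMZ, against 11.84 and 10.31 CPM in VMZ (-1.15 ± 0.36; adjusted p = 0.0999 in edgeR and 0.0394 with the block). The egr1 and ier2 copies overlapped between the regions: egr1.L had 14.41 and 27.27 CPM in DMZ, against 40.75 and 16.97 CPM in VMZ, and ier2.L had 73.41 and 96.13 CPM in DMZ, against 101.1 and 69.54 CPM in VMZ. With the replicate block 7 members were lower in DMZ and 0 higher, the 3 above with fos.L, fosl1.L, atf3.S and jun.S. In that fit 3.44% of all gene models were lower and 5.22% higher, 2714 in all, against 985 without the block. Over the alternative fits with L and S kept apart, those leaving out a library included, the log2 fold change of fos.S lay between -2.06 and -1.71. It lay between -1.37 and -0.82 for fosl2.S and between -2.29 and -1.75 for junb.L. Tissue markers moved beside the members. The 12 neural plate gene models summed to 1487 and 2165 CPM in DMZ, against 764 and 739 CPM in VMZ, and 7 of them were higher in DMZ. The 11 endodermal gene models summed to 893 and 873 CPM in DMZ, against 469 and 147 CPM in VMZ. Most of the DMZ sum was a2m.S, with 883.4 and 802.2 CPM there. The median log2 fold change of the 11 went the other way, at -1.67. Of them a2m.S was called higher and gata6.S lower in DMZ (9.09% each), beside 2.24% and 0.906% of all gene models. The part of the neural plate, endodermal, organizer, ventral and epidermal lists in the members' differences was not tested.

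**Figure D2:**
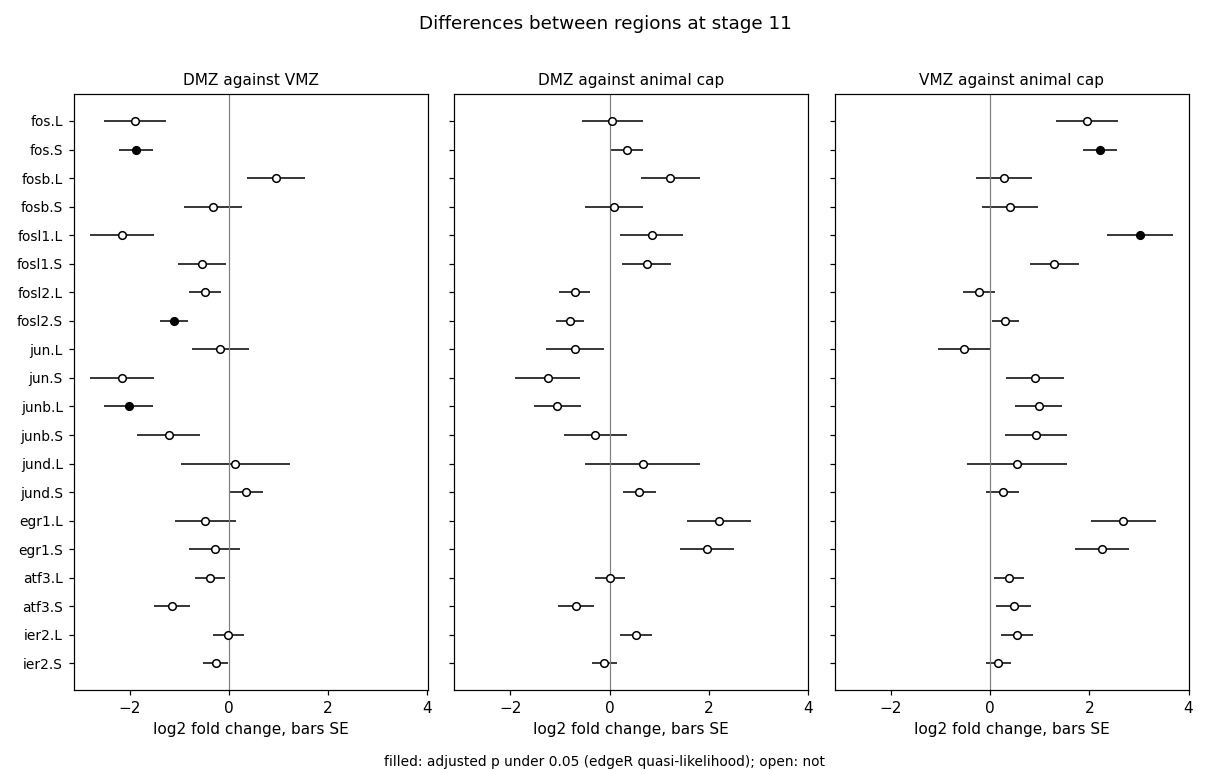
Log2 fold change of the 20 gene models between regions at stage 11, with bars of 1 SE from edgeR and filled points for an adjusted p under 0.05. fos.S, fosl2.S and junb.L are the filled points for DMZ against VMZ, none is filled for DMZ against cap, and fos.S and fosl1.L are filled for VMZ against cap.

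Between VMZ and cap, 2 members were higher in VMZ and 0 lower, beside 0.721% higher and 0.313% lower over all gene models. fos.S was higher by 2.22 ± 0.34 (adjusted p = 0.00248, edgeR), in every fit without a library. fosl1.L had 35.68 and 27.37 CPM in VMZ, against 5.48 and 2.32 CPM in caps, a log2 difference of 3.02 ± 0.66 (adjusted p = 0.0399, edgeR). It was called in none of the 4 fits without a library. egr1.L had 40.75 and 16.97 CPM in VMZ, against 7.40 and 1.58 CPM in caps (2.69 ± 0.65; adjusted p = 0.0666 in edgeR and 0.0449 with the block). egr1.S had 31.86 and 14.79 CPM in VMZ, against 7.94 and 1.84 CPM in caps (2.26 ± 0.54; adjusted p = 0.0641, and 0.0382 with the block). fos.L followed, at 1.95 ± 0.62 (adjusted p = 0.202, and 0.0318 with the block), so 5 members were higher with the block, where 1.61% of all gene models were higher. Over the alternative fits with L and S kept apart, those leaving out a library included, the log2 fold change of fos.S lay between 1.73 and 2.95. That of fosl1.L lay between 2.52 and 3.76. The 8 pan-mesodermal gene models summed to 1680 and 829 CPM in VMZ, against 27.3 and 49.7 CPM in caps, with 7 of 8 higher in VMZ. Their part in the members' differences was not tested.

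Between DMZ and cap no member was called, beside 2.49% higher and 0.718% lower over all gene models. In edgeR's test 5 of 20 had an unadjusted p under 0.05, beside 12.8% of all gene models. DESeq2 called 2 higher, both egr1 copies, beside 3.71% higher over all gene models. egr1.L had 14.41 and 27.27 CPM in DMZ, against 7.40 and 1.58 CPM in caps, a log2 difference of 2.21 ± 0.65 (adjusted p = 0.0863 in edgeR, 0.00827 in DESeq2). egr1.S had 14.85 and 23.55 CPM in DMZ, against 7.94 and 1.84 CPM in caps (1.97 ± 0.54; adjusted p = 0.064 in edgeR, 0.00509 in DESeq2). Both were also called without cap replicate 1, the higher of the cap libraries. The fos copies had differences of 0.05 and 0.34, and fosl2.S and junb.L had negative ones, -0.80 and -1.05, not called. The 3 regional comparisons share their libraries in pairs, so they are not independent of each other.

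The 2 cap libraries differed widely for several members. junb.S had 42.07 and 10.18 CPM in them, junb.L 93.53 and 36.74 CPM, and fos.S 34.27 and 14.65 CPM. Replicate 1 was the higher in each of these.

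Along the DMZ series the members mostly fell. At stage 18 against stage 11, 14 of 20 were lower and 2 were higher (edgeR), beside 19.6% lower and 20.9% higher over all gene models. The median log2 fold change of the members was -1.65, beside 0.02 over all. Of the 16 calls, 8 held in every fit without a library: both fos copies, both fosl1 copies, both ier2 copies, atf3.S and jund.S.

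fos.S had 34.28 and 27.52 CPM at stage 11, 15.83 and 21.68 at 11.5, 18.15 and 18.88 at 12, and 11.47 and 16.88 at 12.5. It then had 9.69 and 12.33 CPM at stage 13, 10.05 and 9.95 at 14, 7.71 and 9.27 at 15, 5.94 and 6.84 at 16, 5.42 and 3.40 at 17, and 4.20 and 4.63 at 18. The level declined over the whole course, with a log2 fold change of -2.81 ± 0.35 at stage 18 against stage 11 (adjusted p = 2.42e-05, edgeR). fos.L had 1.08 and 1.18 CPM at stage 18, against 10.41 and 23.81 CPM at stage 11 (-3.90 ± 0.70; adjusted p = 0.000446, edgeR). Replicate 2 was above replicate 1 for fos.L at all 10 DMZ stages.

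The fosl1 and fosl2 copies were lower by stage 14. fosl1.L had 0.199 and 0.503 CPM at stage 14, against 5.97 and 8.19 CPM at stage 11 (-4.27 ± 0.75; adjusted p = 0.0012, edgeR). At stage 18 it had 0.350 and 0.439 CPM, overlapping with stage 14. fosl1.S followed, at -2.48 ± 0.54 at stage 14 against stage 11 (adjusted p = 0.00402, edgeR). fosl2.L and fosl2.S fell too at stage 14 against stage 11, by -0.94 (adjusted p = 0.0419, edgeR) and -1.04 (adjusted p = 0.0138, edgeR) on the log2 scale. The fosl2.L call held in none of the 4 fits without a library, and the fosl2.S call in only 1 of the 4. Over the alternative fits with L and S kept apart, the log2 fold change lay between -1.11 and -0.74 for fosl2.L. For fosl2.S it lay between -1.27 and -0.79. At stage 18 against stage 14 the log2 fold changes of fosl2.L and fosl2.S were 0.10 and 0.13, neither called. fosb.S was lower at stage 18 against stage 11, by -2.42 ± 0.63 (adjusted p = 0.00653, edgeR), and fosb.L by -2.14 ± 0.61 (adjusted p = 0.0113, edgeR). The fosb.S call held in 3 of the 4 fits without a library, and the fosb.L call in only 1. fosb.L was not called at stage 14 against stage 11 (-0.87) or at stage 18 against stage 14 (-1.27).

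The Jun genes did not move together. junb.L had 13.59 and 7.73 CPM at stage 18, against 32.25 and 30.59 CPM at stage 11 (-1.56 ± 0.49; adjusted p = 0.0189, edgeR). Its call held in only 1 of the 4 fits without a library. With the L and S counts summed, junb was not called (adjusted p = 0.0743, edgeR). junb.S had 16.38 and 6.28 CPM at stage 18, against 26.35 and 16.13 CPM at stage 11, and was called only with the block (adjusted p = 0.0377, beside 0.27 without). In the blocked fit 24.8% of all gene models were lower and 25.9% higher. Replicate 1 was above replicate 2 for junb.S at 9 of the 10 DMZ stages. jund.S, whose product is a Jun protein known in mammals for its steady expression, had 12.36 and 12.58 CPM at stage 18, against 2.04 and 2.56 CPM at stage 11. It rose by 2.46 ± 0.34 on the log2 scale (adjusted p = 5.65e-05, edgeR).

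jund.L rose as well (adjusted p = 0.0135, edgeR), from a base of very few reads: it had 27 and 30 counts at stage 18, against 2 counts and 1 count at stage 11, too few for a useful fold. jun.L had 3.24 and 2.00 CPM at stage 18, against 0.712 and 1.54 CPM at stage 11, and its difference of 1.31 ± 0.58 was called only with the block (adjusted p = 0.0463, beside 0.0818 without). jun.S was not called in either fit.

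Both egr1 and both ier2 copies were lower at the end of the course. egr1.S had 3.12 and 4.96 CPM at stage 18, against 14.85 and 23.55 CPM at stage 11 (-2.24 ± 0.55; adjusted p = 0.00422, edgeR). egr1.L was lower by -2.14 ± 0.64 (adjusted p = 0.015, edgeR). The egr1.S call held in 3 of the 4 fits without a library, and the egr1.L call in only 1. ier2.L had 26.06 and 24.98 CPM at stage 18, against 73.41 and 96.13 CPM at stage 11 (-1.73 ± 0.33; adjusted p = 0.000662, edgeR). ier2.S was lower by -1.10 ± 0.25 (adjusted p = 0.00293).

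The early and late parts of the course differed in their calls. At stage 14 against stage 11, 12 members were lower and 1, jund.S, was higher, beside 13.0% lower and 12.5% higher over all gene models. The 13 calls became 5 without DMZ stage 11 replicate 2, the shallowest library, 4 without stage 14 replicate 1 and 7 without stage 14 replicate 2. Over all gene models those fits gave 3838, 4369 and 4381 calls, against 8006 with every library. The call of junb.S was also lost under upper quartile scaling (adjusted p = 0.0509). At stage 18 against stage 14 only fos.S was called, lower by -1.18 ± 0.34 (adjusted p = 0.0435, edgeR), beside 3.67% lower and 3.94% higher over all. It was called in none of the 4 fits without a library (adjusted p 0.133 to 0.213), and jund.S was called in addition with the block (0.97 on the log2 scale without it, adjusted p = 0.0711, and 0.0264 with it). In the blocked fit 8.34% of all gene models were lower and 8.89% higher. The fosl1, fosl2, junb and atf3.S models had most of their fall before stage 14, and egr1.L had -0.88 before it and -1.26 after it. The difference between the early and the late change of a gene was not tested.

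**Figure D3:**
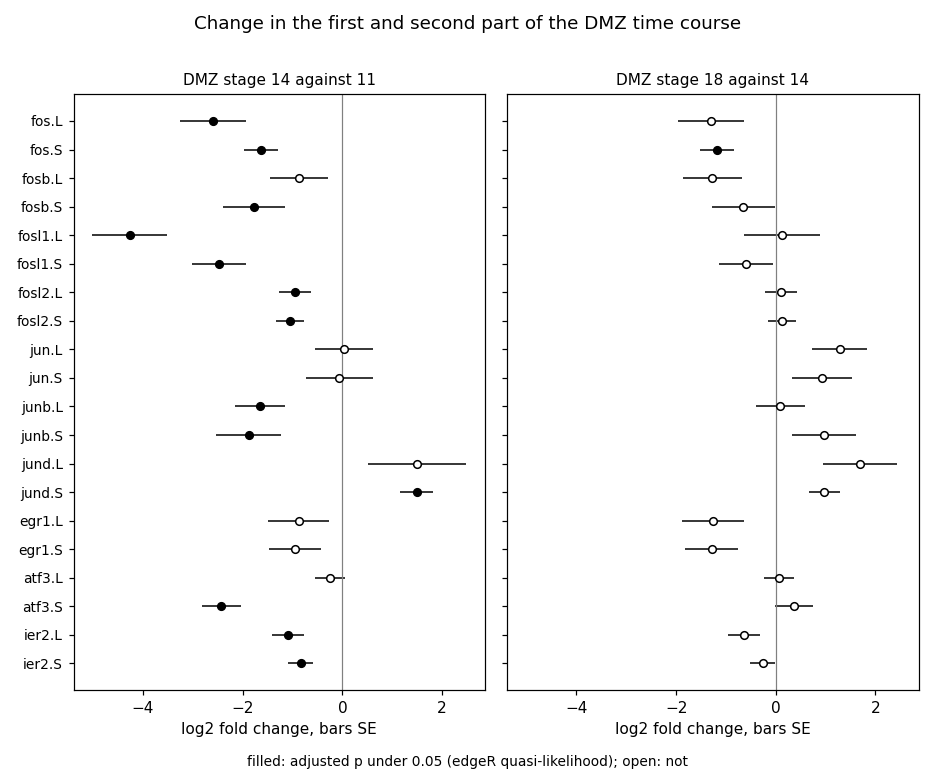
Log2 fold change of the 20 gene models in DMZ at stage 14 against stage 11 and at stage 18 against stage 14, with bars of 1 SE from edgeR and filled points for an adjusted p under 0.05. There are 13 filled points in the first panel and 1, fos.S, in the second.

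No step between neighbouring stages was called in edgeR for any member, nor for any gene model of the series (0% of 282141 tests). Over all gene models, DESeq2 called 22 higher and 0 lower at stage 11.5 against stage 11, and 3 or fewer at each other step. Of 180 member steps 8 had an unadjusted p under 0.05, beside 2.14% of the steps of all gene models. In 7 of the 8 it was the step from stage 11 to 11.5, where 6.42% of all gene models had such a p. There 19 of 20 members had a negative sign, with a median log2 fold change of -0.67, beside 0.01 over all gene models. fosl1.L had the widest first step, with 0.773 and 2.43 CPM at stage 11.5, against 5.97 and 8.19 CPM at stage 11 (-2.15 ± 0.66; adjusted p = 0.753, edgeR). One test of any change over the 10 stages called 12 of 20 members, beside 30.0% of all gene models. With the block it called 16, beside 45.6% of all gene models, with fosb.L (adjusted p = 0.0111), fosl2.S (0.0286), junb.L (0.0326) and junb.S (0.00716) in addition. Of the 20 members, 17 are listed as changing in the authors' deposited table, beside 43.9% of all gene models. fosb.L, jun.L and atf3.L are not listed there. Which groups the authors' test compared is not stated, so their list need not refer to change over the DMZ stages.

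Over the same stages, the 8 pan-mesodermal gene models (among them the T-box genes t, eomes and tbx6) summed to 134 and 202 CPM at stage 18, against 1141 and 1212 CPM at stage 11. Of these, 7 were called lower (87.5%) and 1 higher (12.5%), beside 19.6% and 20.9% of all gene models. The higher model was tbx6.S, with 26.82 and 21.93 CPM at stage 18, against 0.373 and 0.64 CPM at stage 11 (adjusted p = 0.000235, edgeR). The 17 epidermal gene models summed to 1810 and 1817 CPM at stage 18, against 649 and 1332 CPM at stage 11. Of this krt12.S alone had 1004 and 990.7 CPM at stage 18, against 195.3 and 42.5 CPM at stage 11. Called higher were 4 of the 17 (23.5%) and lower 0, beside 20.9% and 19.6% of all gene models. No marker of the pan-mesodermal list was at 0 in these libraries, and the part of tissue make-up in the members' fall was not tested.

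The copies of a pair did not always share a course. The log2 ratio of the L to the S count differed between the 12 groups in 3 of 10 pairs (limma, Benjamini-Hochberg over 5023 pairs), where 45.3% of all pairs were called. That count lies below the background share. With the replicate block 5 were called, fos (adjusted p = 0.00182) and junb (adjusted p = 0.000565) in addition. The share of all pairs called in the blocked fit was not counted, so that 5 has no background beside it.

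For atf3 (adjusted p = 0.000198, limma), the L copy made up 48.8% and 62.0% of the pair's counts at DMZ stage 11, 87.5% and 83.5% at stage 14, and 80.1% and 84.3% at stage 18. In VMZ it made up 39.5% and 45.8%, and in caps 34.5% and 54.9%. atf3.S fell by 2.07 on the log2 scale at stage 18 against stage 11 (adjusted p = 0.000536, edgeR). atf3.L had 4.81 and 6.31 CPM at stage 18, against 4.88 and 7.94 CPM at stage 11, so its libraries overlapped.

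For fosl1 (adjusted p = 0.0386, limma), the L share was 68.1% in DMZ at stage 11, 86.8% in VMZ and 64.7% in caps. It lay at 38.1% in DMZ at stage 14, where the pair had under 1 CPM per copy. Its call was lost in 12 of the 24 fits that each left out 1 library: either library of DMZ stages 11, 12 and 14 and of VMZ, replicate 1 of DMZ stages 13 and 16 and of cap, or replicate 2 of stage 12.5. Adjusted p was 0.158 and 0.155 without the VMZ libraries and 0.0515 to 0.0649 without the others. The call was also lost with a pseudocount of 0.1 (adjusted p = 0.0509). For jun (adjusted p = 0.0179, limma), the L share was 61.4% in DMZ at stage 11, 28.6% in VMZ and 51.6% in caps, and the call was lost on leaving out VMZ replicate 2 (adjusted p = 0.0997) or replicate 1 of DMZ stage 15 (0.0541). The call for atf3 held in all 24 such fits. Reads shared by near-identical copies may have been divided between them by estimation, and the effect of that on these ratios was not tested.

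**Figure D4:**
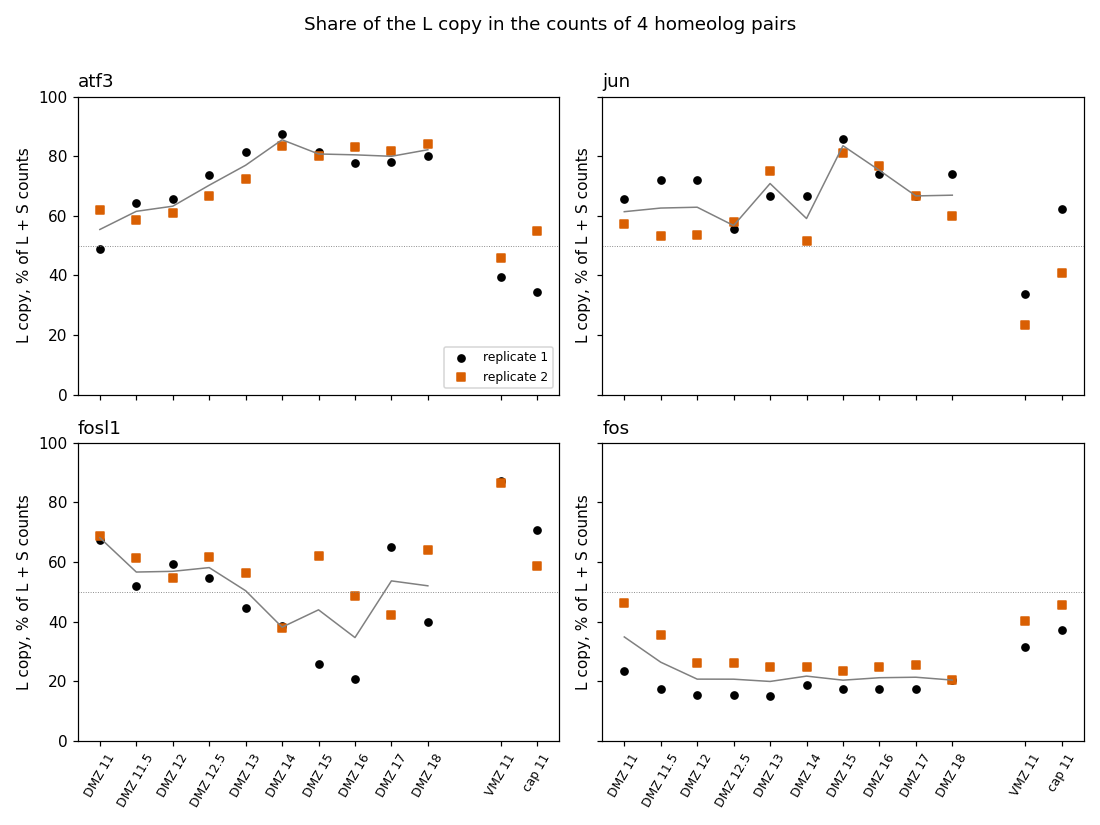
Share of the L copy in the summed L and S counts of atf3, jun, fosl1 and fos, in percent, for replicate 1 (circles) and replicate 2 (squares) of each group, with a line through the DMZ group means. The atf3 share climbs between DMZ stages 11 and 14, and the jun share is lowest in VMZ, at 28.6%.

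The gene models whose pattern was most like that of fos.S over the 12 group means of log2 CPM were inf2.S (r = 0.986), MGC116490 (0.977), fos.L (0.976), trmt44.L (0.975) and pnrc2.S (0.975), out of 13497 candidates. The points share libraries and most of them are stages of 1 explant type. For fosl1.L they were pip4k2b.S (0.981), nuak2.S, fam46b.S, taf4b.S and stc1.L, for fos.L slc15a4.S (0.996) came first, and for junb.L glmn.L (0.988).

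Other immediate early genes, from a list of 70 gene models tested, were also compared between regions. In DMZ against VMZ 6 were higher (8.57%) and 0 lower, beside 2.24% and 0.906% of all gene models. dusp1.S, which encodes a MAP kinase phosphatase, had 45.44 and 41.86 CPM in DMZ, against 20.42 and 24.56 CPM in VMZ (0.96 ± 0.21; adjusted p = 0.0229, edgeR). rhob.S, a small GTPase gene, had 151 and 163.6 CPM in DMZ, against 87.54 and 90.95 CPM in VMZ (adjusted p = 0.0157, edgeR). Against caps, 8 of the 70 were higher in DMZ (11.4%) and 5 lower (7.14%), beside 2.49% and 0.718% of all gene models. In VMZ against caps 4 were higher (5.71%) and 6 lower (8.57%), beside 0.721% and 0.313%. Of these genes, dusp1.S was higher in DMZ than in caps by 3.01 ± 0.23 (adjusted p = 1.59e-06, edgeR). klf4.L, a Krüppel-like factor gene, was lower in DMZ than in caps by -1.90 ± 0.22 (adjusted p = 7.39e-05, edgeR).

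In the DMZ at stage 18 against stage 11, 25 of the 70 were lower (35.7%) and 11 higher (15.7%), beside 19.6% lower and 20.9% higher over all gene models. klf2.L had 0.525 and 0.219 CPM at stage 18, against 71.14 and 51.72 CPM at stage 11 (adjusted p = 2.24e-05, edgeR). hbegf.L, an Egf receptor ligand gene, had 6.12 and 5.54 CPM at stage 18, against 26.31 and 22.91 CPM at stage 11 (adjusted p = 3.02e-05). cyr61.L rose, with 4.17 and 5.68 CPM at stage 18, against 0.475 and 0.128 CPM at stage 11 (adjusted p = 0.000148).

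Genes of the Erk route upstream of fos and egr1 were measured too. Of 41 gene models of SRF, Ets factors, Erk kinases and their feedback inhibitors, 3 were higher (7.32%) and 2 lower (4.88%) in DMZ than in VMZ, beside 2.24% and 0.906% of all gene models. The Sprouty gene spry2.L, an Fgf feedback inhibitor, had 58.8 and 51.97 CPM in DMZ, against 31 and 13.57 CPM in VMZ (1.32 ± 0.28; adjusted p = 0.0173, edgeR). The Ets gene ets1.S went the other way, with 3.12 and 3.46 CPM in DMZ, against 6.83 and 14.79 CPM in VMZ (adjusted p = 0.0277, edgeR). Against caps 7 of 41 (17.1%) were higher in DMZ and 0 lower, beside 2.49% and 0.718% of all gene models. In VMZ 6 (14.6%) were higher than in caps and 0 lower, beside 0.721% and 0.313%. spry1.S had 56.7 and 51.33 CPM in DMZ, against 6.02 and 3.77 CPM in caps (adjusted p = 2.09e-06, edgeR). At stage 18 against stage 11, 11 were lower (26.8%) and 5 higher (12.2%), beside 19.6% and 20.9% of all gene models, with ets2.S at 29.36 and 20.45 CPM at stage 18, against 183 and 203.5 CPM at stage 11 (adjusted p = 6.11e-06).

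Of 27 gene models of the Jnk and p38 stress kinases and their phosphatases, 1 (3.70%) was lower in DMZ than in VMZ and 0 were higher, beside 0.906% and 2.24% of all gene models. dusp8.S, a phosphatase gene, had 11.26 and 7.55 CPM in DMZ, against 33.77 and 31.31 CPM in VMZ (adjusted p = 0.0182, edgeR). At stage 18 against stage 11, 10 of 27 were higher (37.0%) and 4 lower (14.8%), beside 20.9% and 19.6% of all gene models, and dusp8.S was among the higher, with 35.57 and 45.21 CPM at stage 18, against 11.26 and 7.55 CPM at stage 11. Of 31 gene models of other bZIP factors, 0 were called in any regional comparison (edgeR). Over all gene models, between 0.313% and 2.49% were called per direction in these comparisons. At stage 18 against stage 11, 4 were higher and 4 lower (12.9% each), below the 20.9% and 19.6% of all gene models. batf3.S had 0.437 and 0.302 CPM at stage 18, against 3.59 and 5.38 CPM at stage 11 (adjusted p = 2.22e-05). Among 3 Nab corepressor models, nab1.S was lower, with 8.31 and 10.01 CPM at stage 18, against 21.13 and 18.18 CPM at stage 11 (adjusted p = 0.0023). None of 25 heat shock gene models was called between DMZ and VMZ, where only 2.24% of all gene models were higher and 0.906% lower. At stage 18 against stage 11 there were 6 of 25 higher and 9 lower, beside 20.9% and 19.6% of all gene models.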

How the data were processed

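The authors' deposited table holds whole-number counts per gene model and library. Per the submitters' processing notes, the tools included Trim Galore, kallisto and DESeq2. Their versions and order, the genome build and the use of strand were not stated in those notes or any label. Whether the deposited counts are rounded kallisto estimates is not stated. The authors' deposited table of changing genes has adjusted p-values and cluster numbers, used only to count listed members.

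The count model was fitted in edgeR 4.0.16 (R 4.3.3): filterByExpr by group (minimum count 10, minimum total count 15) left 31349 gene models, TMM scaling, a robust quasi-likelihood fit with 1 coefficient per group over 24 libraries (12 residual degrees of freedom, biological coefficient of variation 0.33), and Benjamini-Hochberg adjustment over all of them. The SE is the absolute log2 fold change divided by the square root of F. CPM use TMM-scaled library sizes. Homeolog ratios, log2 of (L count + 0.5) over (S count + 0.5), were tested with limma 3.58.1 (trend). All p-values are two-sided. The fit was run on simulated counts with the same coefficient of variation in every gene model and no effect shared by same-numbered libraries. That run cannot show how such a shared effect bears on the p-values. CPM and counts carry no gene length, and no correction for it was made in the L shares or the sums over lists. Apart from these, levels were not compared between genes.

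Named genes are all members, up to 4 called models of smallest p per list in each of the first 4 comparisons (only part are given), and the 5 most alike models (Pearson r, prior count 2) for fos.S and 3 members of widest range among those reaching 5 CPM. The members and lists were chosen with earlier results of these data known. Same-numbered libraries deviated together in all 66 pairs of groups (correlation 0.237 to 0.666, median 0.409), so the numbers pair the samples by this check, not by the labels, and the fit with the replicate block is printed where it changes a call. Alternatives were a stricter filter (1 CPM in 4 libraries) or none, RLE or upper quartile scaling, DESeq2 1.42.0, L and S summed, pseudocounts, and leaving out each library. Promoter motifs and sequences were not analysed here.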

Additional observations from a re-analysis of the deposited data

How the results depend on the processing

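No member's direction reversed among those with an unadjusted p under 0.05 or a call under some setting. With the replicate block the calls were 7 for DMZ against VMZ, 5 for VMZ against cap, 18 for DMZ stage 18 against 11, 16 for any change, 2 for DMZ stage 18 against 14 and 5 homeolog pairs, and it changed no other call beyond those printed with their values in the results. DESeq2 gave 7 for DMZ against VMZ, 2 for DMZ against cap, 5 for VMZ against cap and 2 for stage 18 against 14. Over all gene models it gave 2238, 1634, 908 and 3661 calls in these comparisons. L and S counts were also summed, which left 10 member genes in place of the copies. Of these, 1 was called for DMZ against VMZ and 8 for stage 18 against 11. For stage 14 against 11 there were 7 of 10, and 7 for any change. Over all genes that fit gave 696, 10157, 6379 and 7428 calls, in the same order. Leaving out single libraries gave 1 to 2 calls for DMZ against VMZ, 0 to 2 for DMZ against cap, 1 to 3 for VMZ against cap, 11 to 13 for stage 18 against 11, 4 to 9 for stage 14 against 11, 0 in each fit for stage 18 against 14, 9 to 12 for any change and 1 to 4 homeolog pairs. Over all gene models the calls also fell in each such fit for stage 18 against 11 and for stage 14 against 11. For any change they fell on leaving out each DMZ library, except replicate 1 of stage 11.5, where they rose. The homeolog pair counts of these fits have no count over all pairs beside them. The cause of these moves was not tested. Over all gene models, DMZ against VMZ had 985 calls, 2714 with the block and 2238 in DESeq2, and upper quartile scaling split its calls as 956 higher and 207 lower, beside 701 and 284. Without single libraries, the calls over all gene models ranged from 210 to 1434 for DMZ against VMZ, 489 to 744 (1006) for DMZ against cap, 133 to 352 (324) for VMZ against cap and 423 to 837 (2388) for stage 18 against 14, with the count from every library in brackets. With 2 libraries per group, a lone library left by a leave-out is assumed to vary like the other groups, and members under 1 CPM rest on few counts.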

Other observations

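Across the 12 group means of log2 CPM, r between the L and S copy was 0.984 for fosl2, 0.978 for egr1, 0.976 for fos, 0.965 for fosl1, 0.953 for junb, 0.942 for ier2, 0.903 for jund, 0.66 for fosb, 0.528 for atf3 and 0.524 for jun. Between different genes, fosl2.S and junb.L had r = 0.977. These are descriptions over 12 points that share libraries.

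Replicate 2 exceeded replicate 1 at 9 of the 10 DMZ stages for fosb.L, fosl1.L, egr1.L and ier2.L. For junb.L and fosl2.L it did so at 2 of the 10 stages. What sets the replicates apart was not tested.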
